A study of Mus musculus with 6 samples.

Results

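The genes examined encode 10 linker and signaling proteins of the focal adhesion: *Tln1*, *Tln2*, *Vcl*, *Zyx*, *Pxn*, *Ptk2*, *Ilk*, *Parva*, *Lims1* and *Fermt2*. They were taken by symbol from a count matrix of 55401 genes, in which each of the 10 has a single row. The libraries were made from C2C12, a mouse muscle cell line that grows as myoblasts and fuses to myotubes in low-serum medium, on day 2 of differentiation. The 3 wild type C2C12 control libraries came from mock cells, which received Cas9, ZsGreen and a guide RNA that matches no mouse sequence. The 3 *Phf2* KO libraries came from cells that received 4 pooled guides against *Phf2*, the gene of an H3K9me2 demethylase. Transfected cells were sorted for ZsGreen, expanded and stored frozen, and the KO cells are a sorted pool and not a clone. The replicates are wells of a single experiment, so p-values measure the spread between these wells.

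Focal adhesions join integrins, the transmembrane receptors for extracellular matrix, to the actin cytoskeleton. Talin and kindlin bind the integrin tail and activate the receptor, vinculin and zyxin strengthen the link to actin under force, and paxillin and focal adhesion kinase carry the signal to the cell. Integrin-linked kinase (ILK), PINCH and parvin form a complex that also connects integrins to actin. In skeletal muscle, these proteins gather at costameres and at myotendinous junctions, where the contractile apparatus is anchored to the membrane.

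The total of estimated counts was 52526109 to 67502788 per library, and no library stood apart in depth. *Phf2* was examined first: its level in *Phf2* KO cells was 38.8% of that in control cells, and the groups did not overlap. Of 10 markers of differentiating skeletal muscle, 7 fell in *Phf2* KO cells past the threshold used below and none rose. Among all genes tested, 3.26% were lower and 3.22% higher past that threshold. The summed level of the 10 markers was 7507 to 8702 CPM in control libraries and 6006 to 6587 CPM in *Phf2* KO libraries. Of 8 markers of cycling cells, 0 passed by edgeR's quasi-likelihood test, exactTest, DESeq2 or limma-voom, and 0 had an unadjusted p under 0.05, with sums of 227 to 250.2 CPM and 220.7 to 240.2 CPM. Markers of adipocytes summed to at most 0.824 CPM, with *Plin1* and *Lep* at 0, and markers of endothelial and blood cells to at most 2.13 CPM, with *Hbb-bs* at 0. Of 5 markers of osteoblasts, 4 were under 1 CPM in every library, among them *Ibsp* at 0. The other marker, *Runx2*, which early mesenchymal cells also express, was higher in *Phf2* KO cells past the threshold. The list summed to 51.8 to 58.8 CPM in control libraries and 64.9 to 70.7 CPM in *Phf2* KO libraries. The part of these marker levels in the values below was not tested. Fewer cells of a type and less RNA per cell cannot be told apart in such libraries.

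The focal adhesion linker genes changed little in *Phf2* KO cells. *Lims1*, the gene of PINCH-1, rose 1.14-fold and was the 1 gene of the 10 with an adjusted p under 0.05 (edgeR's quasi-likelihood test, Benjamini-Hochberg adjustment over 17310 genes). Among all genes tested, 6.48% passed this threshold, 3.22% with a higher and 3.26% with a lower level in *Phf2* KO cells. All 10 genes passed the filter on low counts. By the quasi-likelihood test, the unadjusted p was under 0.05 for 7 of the 10 genes (70%), against 19.4% of all genes tested. The estimate was higher in *Phf2* KO cells for 8 genes and lower for *Zyx* and *Pxn*, with log2 fold changes from -0.13 to 0.19 and a median of 0.10, against a median of -0.001 for all genes tested. The 95% intervals of the 10 fold changes lay between 0.845-fold and 1.23-fold, so larger changes of these mRNAs were outside every interval. CPM (counts scaled by TMM and divided by library size) separated the groups for 7 of the 10 genes, 6 higher and 1 lower, where 25.1% of all genes tested did so (12.9% higher and 12.2% lower). Replicate numbers paired the libraries, and 2 genes passed when that number was added to the model as a block: *Lims1* (adjusted p = 0.0106) and *Parva* (adjusted p = 0.0287). Among all genes tested, 1316 passed with the block and 1122 without it.

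**Figure D1:**
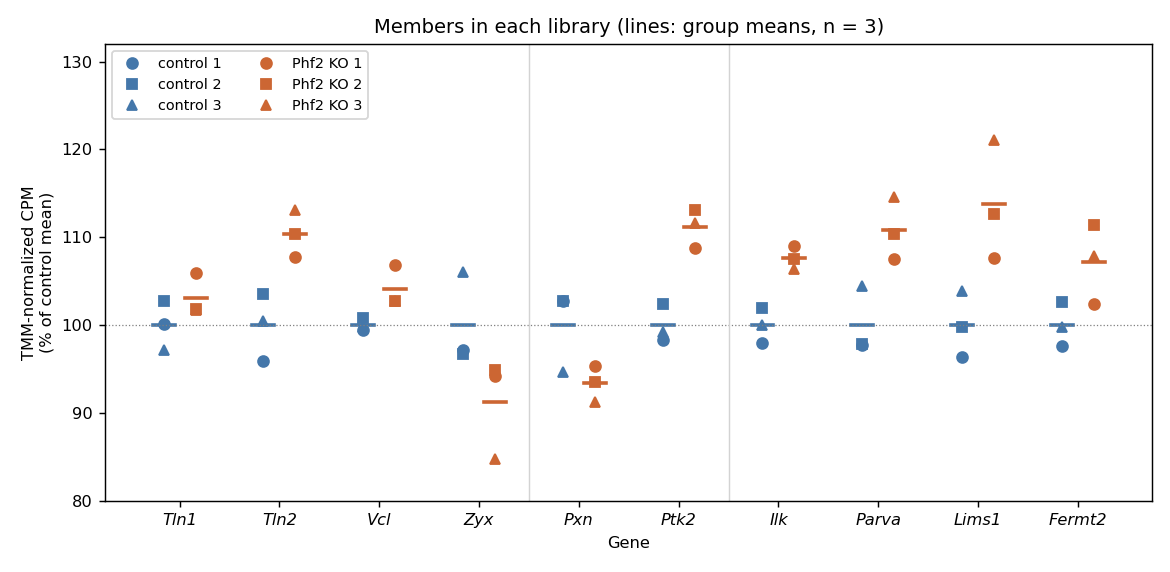
TMM-normalized CPM of the 10 genes in each of the 6 libraries, as a percentage of the gene's control mean; blue symbols are control libraries, orange symbols are *Phf2* KO libraries, symbol shapes give the replicate number and bars give group means (n = 3). For *Tln2*, *Vcl*, *Ptk2*, *Ilk*, *Parva* and *Lims1* all *Phf2* KO libraries lie above the control libraries, and for *Zyx* all lie below them.

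The actin linkers are led by the talins, large rod proteins that bind both the integrin tail and actin. *Tln1* (ENSMUSG00000028465.16, chromosome 4, 43531519 to 43562691, minus strand) encodes the widely expressed talin. It had 928, 953 and 900.2 CPM in control replicates 1, 2 and 3 and 982, 943 and 942 CPM in *Phf2* KO replicates 1, 2 and 3. The groups overlapped, and the log2 fold change of 0.04 had a 95% interval of -0.04 to 0.12 (adjusted p = 0.584).

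*Tln2* (ENSMUSG00000052698.15, chromosome 9, 67217087 to 67559703, minus strand) encodes the talin that is prominent in striated muscle. It had 134, 145 and 141 CPM in control replicates 1 to 3 and 151, 155 and 158 CPM in *Phf2* KO replicates 1 to 3. Every *Phf2* KO library lay above every control library, but the log2 fold change of 0.14, with a standard error of 0.045, did not pass the threshold (adjusted p = 0.0836).

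*Vcl* (ENSMUSG00000021823.10, chromosome 14, 20929398 to 21033676, plus strand) encodes vinculin, which binds talin and actin. Its level was 714, 724 and 717 CPM in control libraries and 768, 738 and 738 CPM in *Phf2* KO libraries. The groups stood apart by a small margin, at a log2 fold change of 0.06 with a standard error of 0.036 (adjusted p = 0.432). The exons of *Vcl* hold 8191 bases, of which 2090 are also exons of *Ap3m1* on the opposite strand. The library kit keeps strand, but the strand setting of the counting is not given in the sources used here.

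*Zyx* (ENSMUSG00000029860.16, chromosome 6, 42349630 to 42360213, plus strand) encodes zyxin, a LIM protein that brings actin assembly factors to stressed fibers. Its level was 607, 604 and 662 CPM in control libraries and 588, 592 and 529 CPM in *Phf2* KO libraries. Each *Phf2* KO library lay below each control library, and replicate 3 was the highest of the control libraries and the lowest of the *Phf2* KO libraries. The log2 fold change was -0.13 with a standard error of 0.051 (adjusted p = 0.169), and it was -0.09 without control replicate 3 and -0.08 without *Phf2* KO replicate 3.

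Promoter sequences are shown for *Vcl* and *Zyx*, as linkers whose fold changes have opposite signs. RefSeq windows (GRCm38.p6, the build of mm10), from 250 bases before to 50 bases after a gene's start, were matched for 6 of the 10 genes. Searched on both strands were the CArG box, the site of serum response factor; GGAATG, the core of TEAD sites; TGANTCA, the AP-1 site; and CAGCTG, an E-box. Capitals mark a match, and matches did not overlap each other. The *Vcl* window (chr14:20929148-20929447, plus strand) held a CArG box that begins 227 bases before the start and GGAATG 143 bases before it. The *Zyx* window (chr6:42349578-42349877, plus strand) held TGANTCA 121 bases before the start. A CArG box is in 1.63% of the 32851 windows in the table, GGAATG in 14.7%, TGANTCA in 7.81% and CAGCTG in 16.3%. A match describes these letters and not a bound site.
Vcl: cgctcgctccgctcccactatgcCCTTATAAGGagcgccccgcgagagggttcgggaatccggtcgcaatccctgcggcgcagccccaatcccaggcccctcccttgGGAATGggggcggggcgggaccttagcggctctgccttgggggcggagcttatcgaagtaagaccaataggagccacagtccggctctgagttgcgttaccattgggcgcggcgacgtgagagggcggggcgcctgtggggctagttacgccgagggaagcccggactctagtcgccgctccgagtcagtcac
Zyx: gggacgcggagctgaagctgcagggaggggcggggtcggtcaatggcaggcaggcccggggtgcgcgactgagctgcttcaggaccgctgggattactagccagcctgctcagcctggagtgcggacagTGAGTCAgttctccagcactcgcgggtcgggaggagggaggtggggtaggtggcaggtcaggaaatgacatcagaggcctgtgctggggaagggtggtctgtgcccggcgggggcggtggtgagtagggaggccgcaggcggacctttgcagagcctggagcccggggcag

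Paxillin and focal adhesion kinase are the signaling partners at the integrin tail. *Pxn* (ENSMUSG00000029528.19, with GENCODE M21 version 18 at chromosome 5, 115506676 to 115555987, plus strand) encodes paxillin, an adaptor that many kinases phosphorylate. It had 120.0, 120.0 and 110.5 CPM in control libraries and 111, 109 and 107 CPM in *Phf2* KO libraries. Control replicate 3 fell among the *Phf2* KO libraries, so the groups overlapped. The log2 fold change was -0.10 with a standard error of 0.046 (adjusted p = 0.259), and on the log2(TPM + 1) scale of the single-library tables it was 0.02, so that its sign depends on the measure.

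*Ptk2* (ENSMUSG00000022607.18, with GENCODE M21 version 17 at chromosome 15, 73205102 to 73423280, minus strand) encodes focal adhesion kinase, the tyrosine kinase that integrin clustering activates. It had 88.7, 92.5 and 89.6 CPM in control libraries and 98.2, 102 and 101 CPM in *Phf2* KO libraries. The groups did not overlap and were 1.11-fold apart, yet the adjusted p of 0.0534 was just above the threshold (log2 fold change of 0.15 with a standard error of 0.044).

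The ILK complex and kindlin had higher estimates for each of the 4 genes. *Lims1* (ENSMUSG00000019920.18, with GENCODE M21 version 17 at chromosome 10, 58323466 to 58424691, plus strand) encodes PINCH-1, a protein of LIM domains that binds ILK. It had 190, 196 and 204 CPM in control replicates 1 to 3 and 212, 222 and 238 CPM in *Phf2* KO replicates 1 to 3. Each *Phf2* KO library was higher than each control library, and *Phf2* KO replicate 3 was the highest. The mean was 197 ± 7.36 CPM in control cells and 224 ± 13.3 CPM in *Phf2* KO cells (SD, n = 3 each). The log2 fold change of 0.19 had a standard error of 0.051 and a 95% interval of 0.08 to 0.30 (adjusted p = 0.0430). This call was near the threshold. It was lost when control replicate 1 (adjusted p = 0.177), control replicate 2 (0.159), *Phf2* KO replicate 2 (0.113) or *Phf2* KO replicate 3 (0.178) was left out. It was also lost with exactTest, the test named in the methods (adjusted p = 0.0940); over 19 alternatives the adjusted p ran from 0.00999 to 0.260.

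*Ilk* (ENSMUSG00000030890.16, chromosome 7, 105736592 to 105742925, plus strand) encodes the scaffold of the complex, a pseudokinase that binds the tail of integrin beta subunits. Its level was 155, 161 and 158 CPM in control libraries and 172, 170 and 168 CPM in *Phf2* KO libraries. The groups were separate with little spread, and the log2 fold change was 0.11 with a standard error of 0.042 (adjusted p = 0.177). Of its 2744 exonic bases, 2106 are also exons of *Taf10* on the opposite strand, and 3.05% of the 75-base words in its transcripts occur in transcripts of *Gm6263*, so its count is less certain than those of the others.

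*Parva* (ENSMUSG00000030770.15, chromosome 7, 112427505 to 112591692, plus strand) encodes alpha-parvin, which binds actin. It had 221, 221 and 237 CPM in control libraries and 243, 250.0 and 259.5 CPM in *Phf2* KO libraries. The groups did not overlap, at a log2 fold change of 0.15 with a standard error of 0.045 (adjusted p = 0.0698). *Fermt2* (ENSMUSG00000037712.16, chromosome 14, 45458795 to 45530118, minus strand) encodes kindlin-2, which activates integrins together with talin. It had 160, 168 and 163 CPM in control libraries and 167, 182 and 176 CPM in *Phf2* KO libraries. *Phf2* KO replicate 1 lay just below control replicate 2, and the log2 fold change was 0.10 with a standard error of 0.046 (adjusted p = 0.255).

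Promoter windows of this group are shown for *Lims1*, the gene that passed the threshold, and for *Fermt2*, the other gene besides *Vcl* whose window holds a CArG box. The *Fermt2* window (chr14:45530016-45530315, minus strand) held its CArG box 204 bases before the start. RefSeq lists 3 windows for *Lims1*, and the most upstream (chr10:58323297-58323596, plus strand) held none of the 4 motifs; neither did the other *Lims1* windows, the *Ilk* windows or the *Tln1* window. The *Lims1* window shown was 70.7% G and C, and the *Fermt2* window 76.7%.
Lims1: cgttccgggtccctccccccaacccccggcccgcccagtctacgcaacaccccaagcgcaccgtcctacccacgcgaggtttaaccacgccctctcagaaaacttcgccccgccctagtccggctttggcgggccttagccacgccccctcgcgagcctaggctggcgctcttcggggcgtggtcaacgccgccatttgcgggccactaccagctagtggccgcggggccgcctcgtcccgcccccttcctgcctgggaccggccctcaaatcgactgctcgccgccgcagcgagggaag
Fermt2: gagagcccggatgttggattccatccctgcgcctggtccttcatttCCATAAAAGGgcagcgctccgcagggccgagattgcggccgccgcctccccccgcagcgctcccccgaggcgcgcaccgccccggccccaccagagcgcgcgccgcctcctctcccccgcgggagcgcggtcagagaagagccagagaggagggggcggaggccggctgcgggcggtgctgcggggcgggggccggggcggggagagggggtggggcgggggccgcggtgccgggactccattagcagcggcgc

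**Figure D2:**
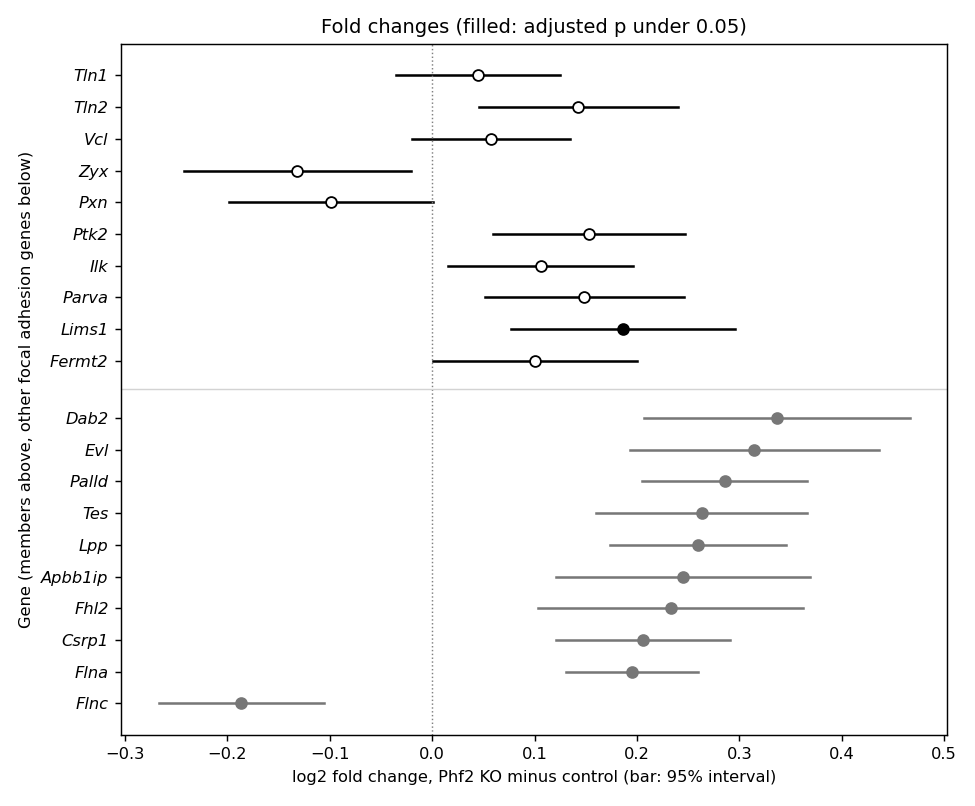
Log2 fold change (*Phf2* KO minus control) of the 10 genes, above the line, and of 10 of the 11 other focal adhesion genes past the threshold, below it; bars are 95% intervals of the quasi-likelihood fit and filled symbols have an adjusted p under 0.05. *Lims1* is the filled symbol among the 10, and the intervals of *Tln1*, *Vcl* and *Pxn* include 0.

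The pairs of libraries with the same replicate number gave the direction of each gene within a pair. *Phf2* KO was higher than control in 3 of 3 pairs for *Tln2*, *Vcl*, *Ptk2*, *Ilk*, *Parva*, *Lims1* and *Fermt2*, in 2 of 3 for *Tln1*, and in 0 of 3 for *Zyx* and *Pxn*. The share of all genes tested with such pairs was not computed, so these counts stand without a background. The groups of *Tln2*, *Vcl*, *Ptk2*, *Ilk*, *Parva*, *Lims1* and *Zyx* did not overlap in CPM. Their counts of pairs follow from that separation under any pairing and add no further support. The log2 ratios of CPM were 0.16, 0.18 and 0.22 for *Lims1* and 0.15, 0.14 and 0.17 for *Ptk2*. They were more uneven for *Zyx*, with -0.05, -0.03 and -0.32 in pairs 1, 2 and 3.

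Levels were compared between genes on the TPM scale, which corrects for transcript length. In control cells *Zyx* was the most abundant with 539.5 ± 47.8 TPM (SD, n = 3), followed by *Vcl* with 328 ± 1.08 TPM. *Tln1* (241 ± 4.18 TPM) and *Ilk* (230.4 ± 29.2 TPM) came next and overlapped each other in both groups. *Parva* (109.7 ± 4.94 TPM), *Fermt2* (105 ± 2.91 TPM) and *Lims1* (96.9 ± 4.58 TPM) followed: *Parva* overlapped *Fermt2* in both groups, and *Fermt2* overlapped *Lims1* in *Phf2* KO cells but not in control cells. *Pxn* (50.95 ± 2.71 TPM), *Ptk2* (34.5 ± 8.10 TPM) and *Tln2* (17.7 ± 0.359 TPM) were the lowest and did not overlap in either group. The order was the same in *Phf2* KO cells, except that *Ilk* (250.4 ± 9.01 TPM) and *Tln1* (247 ± 5.92 TPM) changed places. The TPM data also list assembled loci without a symbol. Each gene was given the summed TPM of all loci that overlap it on the same strand. Such a sum can include loci of another gene within its span. In control cells the sums were 34.6 ± 1.26 TPM for *Tln2*, 67.8 ± 4.14 TPM for *Pxn* and 45.5 ± 2.09 TPM for *Ptk2*. These lay above the rows of the reference genes, and the *Tln2* sum was on average 2.00 times its reference row. *Zyx* and *Ilk*, whose groups were separate in CPM, overlapped in TPM, both in the reference rows and at the assembled loci. *Ptk2* overlapped between the groups in the reference rows and did not in the sum of its assembled loci (50.6 ± 1.57 TPM in *Phf2* KO cells).

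**Figure D3:**
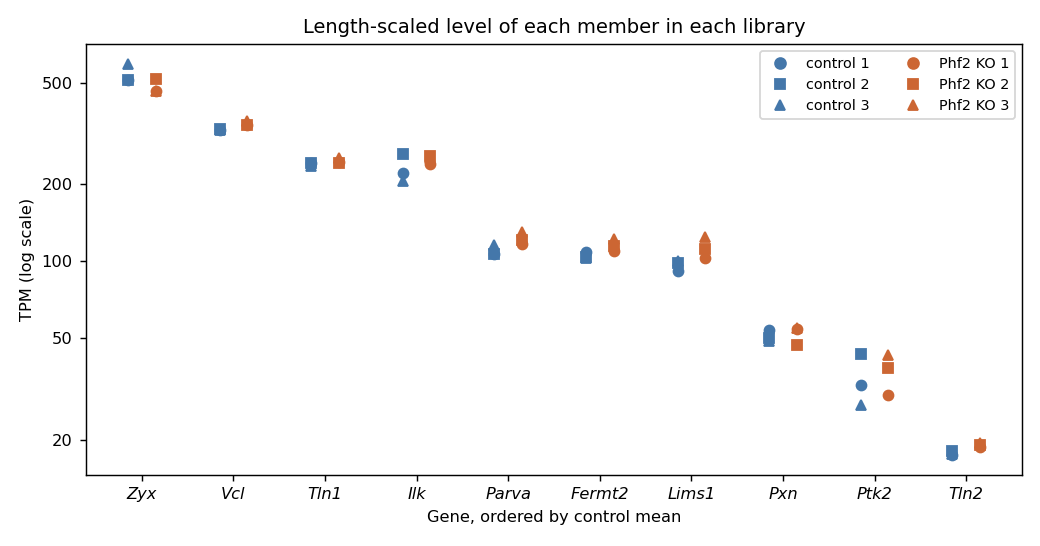
TPM of each gene in each library on a log scale, from the rows of the reference genes, ordered by the control mean; symbols are as in the plot of CPM. Levels run from 594.7 TPM for *Zyx* in control replicate 3 down to 17.4 TPM for *Tln2* in control replicate 1. For *Ptk2* the libraries spread from 27.4 to 43.3 TPM, and the groups overlap.

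Most of these proteins have relatives in the same family, and the shares of such relatives were measured in TPM. Whether a relative replaces a protein was not tested. *Parvb*, the gene of beta-parvin, held 30.7%, 33.2% and 29.6% of parvin TPM in control libraries and 28.6%, 29.2% and 27.2% in *Phf2* KO libraries. Its share was lower in each *Phf2* KO library than in each control library, with means of 31.2% ± 1.86 and 28.3% ± 1.06 (SD, n = 3 each). The two-sided exact permutation test gave p = 0.1, the smallest it can give with 3 libraries against 3, and 0.25 when adjusted over 5 shares. The difference of -2.82 percentage points was -1.80 without control replicate 2. *Tln2* held 6.67%, 6.93% and 6.93% of talin TPM in control libraries and 7.09%, 7.31% and 7.10% in *Phf2* KO libraries, also without overlap (exact permutation p = 0.1, adjusted 0.25). The groups overlapped in the other measures of the *Tln2* share: it was 13.1% ± 0.441 and 13.9% ± 0.552 in CPM, and 12.5% ± 0.445 and 13.5% ± 0.589 on the assembled loci (exact permutation p = 0.2 each; SD, n = 3 each).

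The shares of the other relatives overlapped between the groups. *Tgfb1i1*, the gene of the paxillin relative Hic-5, held 66.4% ± 1.46 of paxillin family TPM in control cells and 66.5% ± 3.04 in *Phf2* KO cells. *Ptk2b*, the gene of the kinase PYK2, held 16.2% ± 5.18 and 16.0% ± 1.92 of the kinase TPM, and *Lims2* held 1.48% ± 1.76 and 1.81% ± 1.27 of PINCH TPM (SD, n = 3 each). Exact permutation tests of these 3 shares gave p = 1.0 each. The *Ptk2b* share depended on the measure: in CPM it was 13.0% ± 1.06 in control cells and 10.9% ± 0.414 in *Phf2* KO cells, and on assembled loci it was 17.6% ± 5.03 and 12.1% ± 0.446 (SD, n = 3 each), with every *Phf2* KO library lower in both (exact permutation p = 0.1 each). *Lims2* was low in control cells, at 2.38 ± 0.537 CPM (SD, n = 3), and its share differed between control libraries from 0.427% to 3.52%. *Fermt1* was at 0 in every library, and *Fermt3* stayed under 1 CPM, so the counted kindlin mRNA was nearly all *Fermt2*.

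Other genes of the focal adhesion were taken from a list of 72 that holds no gene of the 10, of which 70 were tested. Past the threshold, 9 rose and 2 fell, 11 in all, where 6.48% of all genes tested passed (3.22% higher and 3.26% lower). The median log2 fold change of the list was 0.04. Among the 15 actin linkers and crosslinkers, *Palld* (palladin, log2 fold change 0.29, adjusted p = 4.64e-04) and *Flna* (filamin A, 0.20, adjusted p = 0.00145) rose, and *Flnc* (the muscle filamin, -0.19, adjusted p = 0.00877) fell. *Flna* was at 2399, 2441 and 2439 CPM in control libraries and 2748, 2805 and 2779 CPM in *Phf2* KO libraries, whereas *Flnc* was at 1122, 1130.0 and 1051 CPM and then at 968, 962 and 973 CPM. The 2 filamins thus moved in opposite directions, without overlap of the groups in either gene; *Flnc* did not pass with exactTest.

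Of the 11 genes of the zyxin family and other LIM proteins, 4 rose and none fell past the threshold. Among all genes tested, 3.22% passed with a higher and 3.26% with a lower level. The 4 LIM genes were *Tes* (testin, log2 fold change 0.26, adjusted p = 0.00454), *Lpp* (a zyxin relative, 0.26, adjusted p = 0.00152), *Fhl2* (0.23, adjusted p = 0.0343) and *Csrp1* (0.21, adjusted p = 0.00670). Of these, *Fhl2* did not pass with limma-voom. *Lpp* was at 387, 374 and 368 CPM in control libraries and 447, 440.1 and 463 CPM in *Phf2* KO libraries, while the estimate of *Zyx* itself was negative. Among 6 genes of actin assembly, *Evl* (an Ena/VASP protein) rose by 0.31 on the log2 scale (adjusted p = 0.00415); the 2 with the highest CPM, a scale without length correction, were *Pfn1* (profilin 1) and *Enah*, which had log2 fold changes of -0.07 and -0.10 and did not pass. Of 22 kinases and adaptors, 0 passed by edgeR's quasi-likelihood test, exactTest and limma-voom and 1 by DESeq2 (*Shc1*), while 7 had an unadjusted p under 0.05 (31.8%, against 19.4% of all genes tested). The highest in CPM were *Ptpn11* (log2 fold change -0.03) and *Shc1* (0.13, adjusted p = 0.0808). Among 10 regulators of integrin activation, *Dab2* (an endocytic adaptor, 0.34, adjusted p = 0.00418) and *Apbb1ip* (RIAM, which brings talin to integrins, 0.25, adjusted p = 0.0210) rose. Of the 6 tested relatives, 0 passed by edgeR's quasi-likelihood test, exactTest, DESeq2 or limma-voom, with log2 fold changes of 0.01 for *Tgfb1i1*, the highest in CPM, and -0.05 for *Parvb*; the unadjusted p was under 0.05 for 0 of them.

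The genes whose 6 levels ran most like those of *Lims1* were sought by the root mean square distance between centred log2 CPM values. All genes tested were searched except the focal adhesion genes examined or listed above, which were left out. The nearest were *Amot* (distance 0.014 on the log2 scale), which encodes angiomotin, *Dclk2* (0.019) and *Lifr* (0.020). *Amot* had 197, 206 and 210.4 CPM in control libraries and 224, 233 and 246 CPM in *Phf2* KO libraries. The distances describe these 6 libraries and carry no test.

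**Figure D4:**
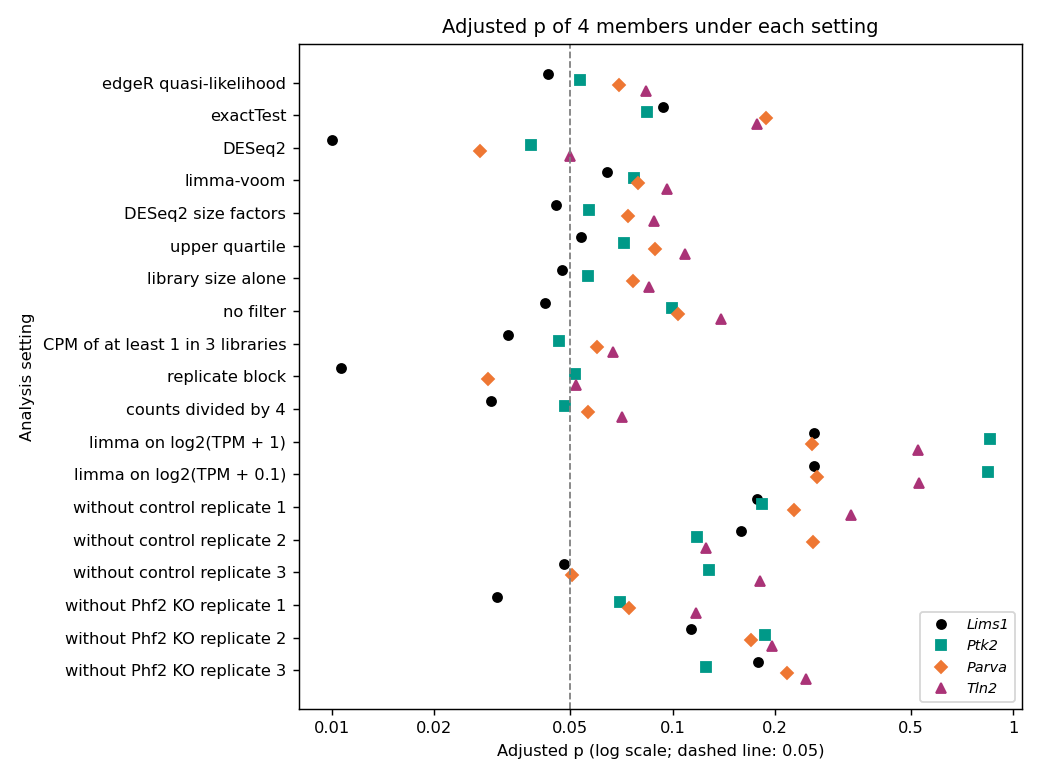
Adjusted p of the 4 genes with the smallest p (*Lims1*, *Ptk2*, *Parva* and *Tln2*) on a log scale, in the quasi-likelihood fit at the top and under 18 other analysis settings; the dashed line is at 0.05. *Lims1* lies left of the line in the first fit and under 9 of the 18 other settings, and its lowest value was 0.00999, with DESeq2.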

How the data were processed

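RNA sequencing of polyadenylated RNA was analysed for 3 control and 3 *Phf2* KO libraries, grouped by the sample labels. The authors used HISAT2 to align paired-end reads to mm10 and StringTie to count them by gene; versions, annotation and strand setting are not given in the sources used here. Values in the deposited matrix are estimated counts, whole and without scaling for depth. They are not read tallies: coverage (the authors' mean depth per base) times transcript length per count had a median of 74.98 to 74.99 bases. That is less than the read length the paper states, so a total of estimated counts exceeds the number of such reads. Deposited TPM (a signal scaled per library by the authors) was taken from the rows of reference genes.

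Genes passing filterByExpr at a minimum count of 10 were scaled by TMM and tested in edgeR 4.0.16 (R 4.3.3) by the quasi-likelihood test with robust dispersions, with Benjamini-Hochberg adjustment over 17310 genes and a threshold of 0.05. The common biological coefficient of variation was 0.135. Intervals use the fit's degrees of freedom and cover the spread between wells only. The methods name exactTest, which was an alternative, as were DESeq2 1.42.0, limma-voom and limma on log2(TPM + 1) and log2(TPM + 0.1) (limma 3.58.1), other scalings and filters, counts divided by 4, a replicate block, a threshold of 0.01 and leaving out each library. Shares on assembled loci, summed over all loci that overlap a gene on the same strand, were added after seeing the data. The procedure was tested on simulated data, in which the changes were larger than those of the focal adhesion linker genes. How it calls changes as small as theirs was not tested.

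Same-numbered libraries deviated together from their group means (correlations of 0.235, 0.258 and 0.168 across 10923 genes; at most -0.0019 between different numbers), so the numbers were taken as pairs; the pairing comes from these values and not from the labels. Coordinates are those of GENCODE M21 (GRCm38), which has an older version of 3 of the 10 identifiers. The 10 genes and the lists were chosen with earlier results of these data known. Named among the other focal adhesion genes were, per subgroup, at most 4 past the threshold with the largest change or, with fewer than 2, the 2 of highest CPM; *Fermt1*, *Fermt3* and the single markers were named after their values were seen. Of the other focal adhesion genes, 1 past the threshold is counted but not reported here by name.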

Additional observations from a re-analysis of the deposited data

How the results depend on the processing

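The number of the 10 genes past the threshold was 1, and it was 0 with exactTest, limma-voom, upper-quartile scaling, an adjusted p under 0.01 and both limma fits of TPM, 2 with a CPM of at least 1 in 3 libraries, with counts divided by 4 and with the replicate block, and 4 with DESeq2 (*Lims1*, *Ptk2*, *Parva* and *Tln2*). Leaving out 1 library gave 0 to 1. The cause was not tested. Of the 72 other focal adhesion genes, 11 passed; 1 did so in each limma fit of TPM and 7 to 12 without 1 library (7 without control replicate 2 or *Phf2* KO replicate 2). Over all genes 1122 passed. That total also rose, to 1527 with DESeq2, 1316 with the replicate block, 1286 with counts divided by 4 and 1264 with a CPM of at least 1 in 3 libraries. The genes tested were 14163 with counts divided by 4 and 13441 with the CPM filter, against 17310. The total was 127 with limma on log2(TPM + 1), 153 with limma on log2(TPM + 0.1) and 472 at an adjusted p under 0.01. Without 1 library it was 468 to 1039 (468 if control replicate 2 was left out, and 577 and 613 if *Phf2* KO replicate 2 or 3 was). The log2 fold change of *Pxn* was 0.0248 and 0.0252 in the TPM fits, with pseudocounts of 1 and 0.1, and no other sign of the 10 genes turned. The replicate block (the libraries paired by number) added *Parva*, left the 11 other genes the same and changed no other call among these genes. In the paired test the differences in share were the same by construction, since the mean within-pair difference equals the difference of group means. The smallest possible p of that paired test is 0.25.

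The difference in the *Lims2* share was -0.15 percentage points on the CPM scale, and -0.21 to 1.34 without 1 library, against 0.32. Without 1 library the *Parvb* share differed by -3.62 to -1.80 and the *Tln2* share by 0.239 to 0.368 percentage points. The *Ptk2b* share differed by -1.74 to 2.78 and the *Tgfb1i1* share by -1.54 to 1.47 percentage points without 1 library. TPM could not be summed over assembled loci by symbol, since these loci carry none.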
